A study of Homo sapiens with 5 samples.

Results

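Aminoacyl-tRNA synthetase genes were examined in peak lists from chromatin immunoprecipitation followed by sequencing (ChIP-seq) from MIA PaCa-2 cells, a long-established line from a human pancreatic cancer. The group holds 38 of 20037 protein-coding genes: 19 enzymes of the cytosol, 16 enzymes of the mitochondria, and 3 scaffold proteins of the multi-synthetase complex (AIMP1, AIMP2 and EEF1E1, also called AIMP3). The 38 genes were chosen by name. A gene was counted as having a peak in a list if at least 1 peak lay within 1 kb of either end of the gene in the RefSeq annotation of the hg38 build, and it was represented by its peak of highest fold enrichment.

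The data come from 5 groups of 1 library each. MYC was mapped in MIA PaCa-2 cells carrying an inducible short hairpin RNA against MED30 (shMED30) after 3 days of doxycycline, which switches the hairpin on, and in the same line without doxycycline. MYC, MED30 and MED17 were each mapped in parental MIA PaCa-2 cells. Whether the shMED30 line is a single clone is not given in the sources used here, and its MED30 level was not analysed here. For MED30 and MED17, cells were treated with disuccinimidyl glutarate (2 mM, 20 min) before formaldehyde (1%, 10 min), while for MYC the formaldehyde step was used alone, so fixation cannot be told apart from the protein wherever Mediator is set beside MYC. No group had a replicate, so no test between groups was possible. The intervals of pileups, folds and ratios cover fragment counting error only, and those of gene shares take the genes as independent draws.

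A synthetase joins an amino acid to its own tRNA, and the charged tRNA then carries that amino acid to the ribosome. Most amino acids have a separate enzyme for the cytosol and for the mitochondria, both encoded in the nucleus. GARS1 and KARS1 make the enzyme of both compartments, and EPRS1 joins glutamyl- and prolyl-tRNA synthetase in a single protein. Part of the cytosolic enzymes sit in the multi-synthetase complex, which AIMP1, AIMP2 and EEF1E1 hold together. MYC is a transcription factor that binds the E-box CACGTG with its partner MAX and is known for its presence at genes of protein synthesis. Mediator links transcription factors to RNA polymerase II, and MED30 and MED17 are subunits of it.

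The promoter sequences of 8 members are shown because they carry the motifs set beside the MYC summits. Each is the 300-base window from 250 bases before to 50 bases after a gene start listed in RefSeq (GRCh38.p14), written 5′ to 3′ on the strand of the gene. Of the 38 members, 33 had a listed start. In the first 5 sequences the capitals mark the E-box CACGTG. AIMP2 (its second listed start) lies at chr7:6009315-6009614 (plus strand), MARS2 at chr2:197705119-197705418 (plus strand), IARS1 at chr9:92293648-92293947 (minus strand), EARS2 at chr16:23557301-23557600 (minus strand) and CARS2 at chr13:110706466-110706765 (minus strand).
AIMP2: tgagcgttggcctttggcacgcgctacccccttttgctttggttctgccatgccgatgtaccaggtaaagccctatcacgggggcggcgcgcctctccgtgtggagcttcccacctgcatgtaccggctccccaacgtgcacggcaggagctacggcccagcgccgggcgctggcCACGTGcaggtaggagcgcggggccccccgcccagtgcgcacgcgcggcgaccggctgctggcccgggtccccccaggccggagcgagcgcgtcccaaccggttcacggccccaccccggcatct
MARS2: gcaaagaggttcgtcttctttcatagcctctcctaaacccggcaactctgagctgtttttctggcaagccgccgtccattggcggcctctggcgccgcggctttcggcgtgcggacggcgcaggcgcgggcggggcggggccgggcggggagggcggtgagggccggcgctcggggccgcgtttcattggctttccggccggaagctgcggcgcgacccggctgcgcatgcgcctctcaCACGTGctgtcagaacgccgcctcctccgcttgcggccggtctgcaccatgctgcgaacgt
IARS1: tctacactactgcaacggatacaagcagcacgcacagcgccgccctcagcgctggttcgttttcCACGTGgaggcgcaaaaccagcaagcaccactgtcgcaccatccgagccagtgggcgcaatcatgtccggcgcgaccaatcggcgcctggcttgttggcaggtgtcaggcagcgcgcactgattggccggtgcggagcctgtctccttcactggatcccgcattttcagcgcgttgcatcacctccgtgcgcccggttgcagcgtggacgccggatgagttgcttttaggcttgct
EARS2: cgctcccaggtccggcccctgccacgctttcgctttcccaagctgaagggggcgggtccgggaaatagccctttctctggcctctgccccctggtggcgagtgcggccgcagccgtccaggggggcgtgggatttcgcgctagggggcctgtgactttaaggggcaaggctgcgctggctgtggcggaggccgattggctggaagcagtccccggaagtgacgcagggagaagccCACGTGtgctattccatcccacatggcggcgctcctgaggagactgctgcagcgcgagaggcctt
CARS2: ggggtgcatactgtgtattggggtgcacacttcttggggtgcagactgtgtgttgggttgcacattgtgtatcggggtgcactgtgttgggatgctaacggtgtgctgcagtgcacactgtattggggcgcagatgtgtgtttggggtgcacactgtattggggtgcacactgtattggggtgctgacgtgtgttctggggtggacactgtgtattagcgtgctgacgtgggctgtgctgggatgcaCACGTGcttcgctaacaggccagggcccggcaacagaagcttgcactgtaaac

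In the next pair the capitals mark TGATGNAAT, here on the opposite strand, the composite element through which the stress factor ATF4 acts at amino acid response genes. GARS1 (its second listed start) lies at chr7:30594628-30594927 (plus strand) and TARS1 at chr5:33440715-33441014 (plus strand).
GARS1: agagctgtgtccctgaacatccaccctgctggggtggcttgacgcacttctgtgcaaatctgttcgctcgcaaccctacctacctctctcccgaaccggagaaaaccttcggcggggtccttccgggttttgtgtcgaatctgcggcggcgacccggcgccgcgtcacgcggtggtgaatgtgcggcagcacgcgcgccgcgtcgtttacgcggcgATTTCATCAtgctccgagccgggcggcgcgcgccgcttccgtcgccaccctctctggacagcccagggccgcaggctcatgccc
TARS1: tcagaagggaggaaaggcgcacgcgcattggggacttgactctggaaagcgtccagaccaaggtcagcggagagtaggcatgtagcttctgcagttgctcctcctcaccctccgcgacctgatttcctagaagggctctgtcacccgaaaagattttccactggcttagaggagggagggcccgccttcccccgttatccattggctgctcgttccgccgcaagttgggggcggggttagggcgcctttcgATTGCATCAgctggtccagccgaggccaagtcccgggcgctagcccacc

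The last sequence shows the promoter that HARS1 shares with its mitochondrial counterpart HARS2. The 2 genes start 85 bp apart in opposite directions and their windows share 184 bases. The capitals mark CCGGAAG on either strand, the core bound by ETS-family factors, and the window lies at chr5:140691321-140691620 (minus strand).
HARS1: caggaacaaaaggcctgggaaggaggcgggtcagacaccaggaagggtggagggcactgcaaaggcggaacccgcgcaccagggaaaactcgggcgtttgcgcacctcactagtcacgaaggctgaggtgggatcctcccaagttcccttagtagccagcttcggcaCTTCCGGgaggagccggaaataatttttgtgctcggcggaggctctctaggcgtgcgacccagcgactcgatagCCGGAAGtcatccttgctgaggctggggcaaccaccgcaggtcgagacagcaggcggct

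The peak lists held 4621 peaks for MYC in shMED30 cells with doxycycline, 7158 for MYC in shMED30 cells without it, 14331 for MYC in parental cells, 12040 for MED30 and 13172 for MED17. Read totals are not part of the lists, so a background pileup was recovered from the deposited fold and p-values as a stand-in for depth. It was taken near the lowest local background, in fragments, among the called peaks of a list. It was 0.186 fragments in the library with doxycycline, 0.310 without it and 2.56 in parental MYC, against 1.65 for MED30 and 1.60 for MED17. The shMED30 lists were also called at a looser limit (q of 0.1) than the other 3 (q of 0.05). A fold enrichment was therefore read only against the other peaks of its own list. Acinar, islet and leukocyte marker genes had no peak in any list, while KRT8, KRT18, KRT19 and SOX9 of 6 epithelial markers and all 3 mesenchymal markers (VIM, ZEB1 and CD44) had a peak of at least 1 protein in parental cells. The epithelial markers KRT7 and EPCAM had none, and of 3 fibroblast markers COL1A2 had MED30 and MED17 peaks.

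In parental cells nearly all synthetase genes had MYC at an end of the gene. MYC peaks were called at 35 of 38 members, where 39.0% of all protein-coding genes had one. All 19 cytosolic genes (95% Clopper-Pearson interval 82.4% to 100%), 13 of 16 mitochondrial genes (54.4% to 96.0%) and all 3 scaffold genes were among them. The genes without one were FARS2, LARS2 and VARS2, the mitochondrial enzymes for phenylalanine, leucine and valine. The interval of the cytosolic share overlapped that of the mitochondrial share.

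Mediator was likewise called at most members. MED30 peaks lay at 29 members, where 41.7% of all genes had one, and comprised 16 cytosolic, 11 mitochondrial and 2 scaffold genes. MED17 peaks lay at 34 members, where 47.9% of all genes had one, and comprised 18 cytosolic, 13 mitochondrial and 3 scaffold genes. Counted at gene ends, the cytosolic share was above the mitochondrial share in each of the 5 lists. The Clopper-Pearson intervals of the 2 shares overlapped in each list, and their overlap was not read as a test of the compartments. The order turned round for MYC in shMED30 cells without doxycycline when peaks were counted at listed starts, at 4 of 16 cytosolic genes and 5 of 14 mitochondrial genes. LARS1 and YARS1, bound at a gene end, have no listed start there, and FARS2 is bound only at its listed start.

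**Figure D1:**
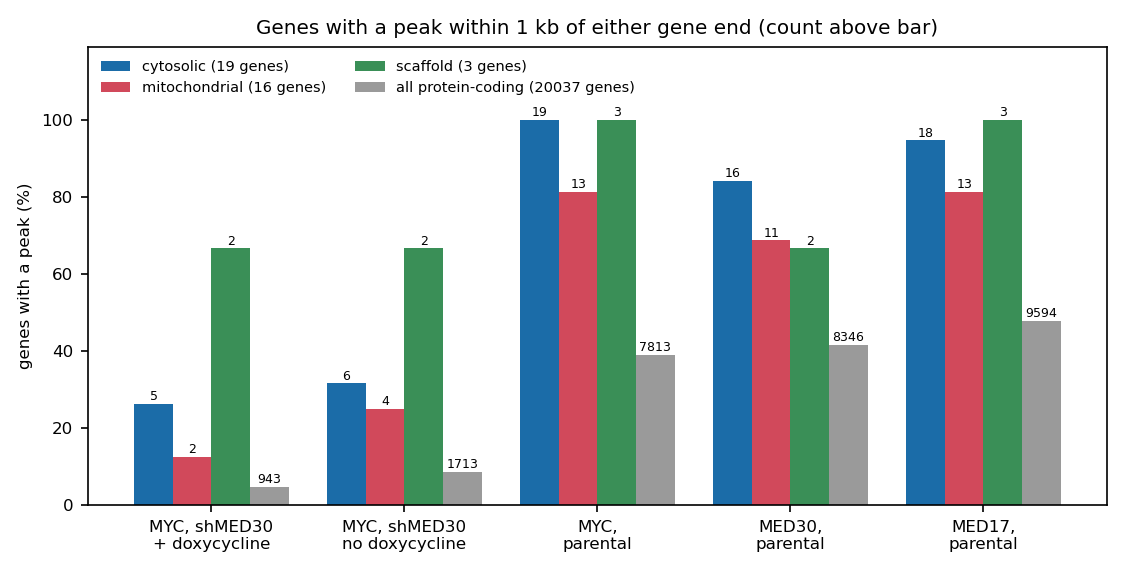
Percent of genes with a peak within 1 kb of either gene end (vertical axis) in each of the 5 libraries (horizontal axis), for cytosolic, mitochondrial and scaffold genes and for all protein-coding genes, with the number of genes above each bar. Cytosolic bars stand above mitochondrial bars in every library (at listed starts the order turns round without doxycycline, with 4 of 16 cytosolic and 5 of 14 mitochondrial genes), and both stand above the grey bar of all genes, as in parental MYC with 19 of 19 and 13 of 16 against 7813 of 20037.

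The median MYC fold in parental cells was 5.75 over the 19 cytosolic genes and 5.39 over the 13 mitochondrial genes, beside 4.68 over all 7813 genes with a peak. The 3 scaffold genes had a median of 8.68. The median member stood at percentile 72.7 of all parental MYC peaks, and the median of all bound genes at percentile 55.6. Mediator folds of the members lay closer to those of other genes. The median MED30 fold was 5.17 for cytosolic and 5.38 for mitochondrial genes, beside 5.05 for all genes. The median MED17 fold was 5.16 for cytosolic and 5.03 for mitochondrial genes, beside 5.19 for all genes.

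**Figure D2:**
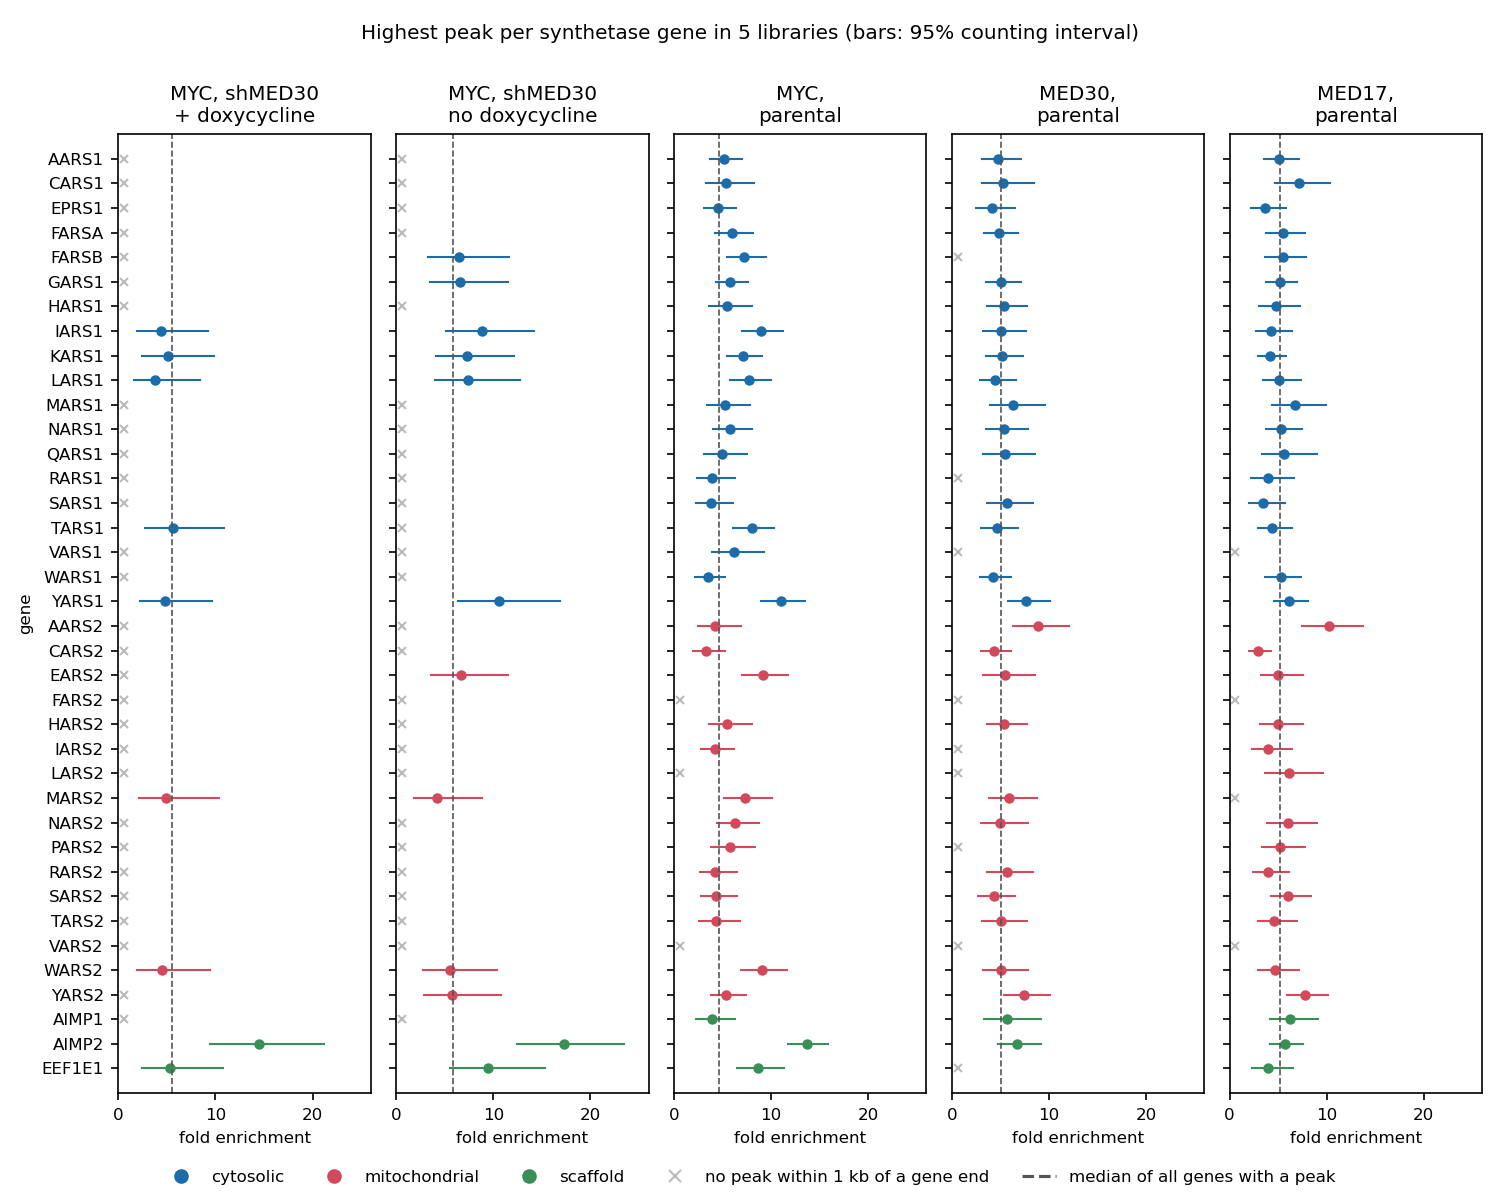
Fold enrichment (horizontal axis) of the highest peak at each of the 38 genes (vertical axis), in a panel for each of the 5 libraries, with the 95% counting interval of the summit pileup as bars, grey crosses for no peak and a dashed line at the median of all genes with a peak. AIMP2 has the highest fold of the members in all 3 MYC panels, at 14.5, 17.3 and 13.7, while AARS2 leads the MED30 and MED17 panels at 8.85 and 10.2.

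The scaffold gene AIMP2, which holds the multi-synthetase complex together, had the strongest MYC peak of all members. Its parental MYC peak (chr7:6008489-6009797) had a fold of 13.7 (counting interval 11.7 to 15.9) from a summit pileup of 174 fragments, percentile 99.2 of its list. The centre of its E-box, printed above, lay 14 bp from that summit. The same peak lies at an end of PMS2, a mismatch repair gene that runs the other way, so it cannot be assigned to AIMP2 alone. Mediator was called there as well, with folds of 6.70 for MED30 and 5.68 for MED17. EEF1E1, the smallest of the scaffold proteins, followed with a parental MYC fold of 8.68 and a MED17 fold of 4.01, and had no MED30 peak. AIMP1 had the reverse order within the lists, with a parental MYC fold of 3.90 (percentile 30.2), a MED30 fold of 5.68 and a MED17 fold of 6.26.

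Among the cytosolic enzymes, YARS1 (tyrosine) had the highest parental MYC fold, 11.0 (8.97 to 13.5). Its peak lies at chr1:32817012-32817818, beside an end of S100PBP. IARS1 (isoleucine) followed at 8.97, TARS1 (threonine) at 8.01, LARS1 (leucine) at 7.69, FARSB (the beta subunit of the phenylalanine enzyme) at 7.26 and KARS1 (lysine) at 7.10. The lowest cytosolic folds were those of WARS1 (tryptophan) at 3.46, SARS1 (serine) at 3.86 and RARS1 (arginine) at 3.94. The 10 cytosolic genes in between ranged over 4.51 to 6.17 and were EPRS1, QARS1, AARS1, MARS1, CARS1, HARS1, NARS1, GARS1, FARSA and VARS1. YARS1 and WARS1 did not overlap in their counting intervals (8.97 to 13.5 against 2.15 to 5.31), whereas neighbours in the order did.

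Among the mitochondrial enzymes, EARS2 (glutamate) had a parental MYC fold of 9.16, WARS2 (tryptophan) 9.04 and MARS2 (methionine) 7.34. The other 10 bound mitochondrial genes ranged over 3.34 to 6.32. The lowest were CARS2 (cysteine) at 3.34, AARS2 (alanine) at 4.21 and IARS2 (isoleucine) at 4.23. NARS2, PARS2, HARS2, YARS2, SARS2, TARS2 and RARS2 lay between them.

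Mediator gave another order of the members than MYC. AARS2 had the highest MED30 fold (8.85, from 38 fragments) and the highest MED17 fold (10.2, from 43 fragments) of all members, at percentiles 96.9 and 98.9 of those lists. Both peaks lie at the upper end of the gene on the chromosome (MED17 peak chr6:44312763-44313494), whereas its MYC peak lies at the other end, beside DRC5 (chr6:44297662-44297950). YARS2 came next among the mitochondrial genes, with 7.48 for MED30 and 7.81 for MED17. Among the cytosolic genes, YARS1 had the highest MED30 fold (7.69) and CARS1 the highest MED17 fold (7.12). MARS1 (methionine), a complex subunit, had 6.32 for MED30 and 6.74 for MED17. The MED17 fold of YARS1 was 6.16, the MED30 fold of MARS2 5.95 and that of SARS1 5.66. The lowest MED17 folds were those of CARS2 (2.98), SARS1 (3.47), EPRS1 (3.68) and RARS2 (3.92), and the lowest MED30 folds those of EPRS1 (4.13), WARS1 (4.28), SARS2 (4.31) and CARS2 (4.35).

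MYC and both Mediator subunits were called together at 28 members, where 31.2% of all genes had all 3. These comprised 16 cytosolic, 10 mitochondrial and 2 scaffold genes. At 26 of the 28 the 3 peaks overlapped each other, and the exceptions were AARS2 and CARS2. Over all genes the 3 overlapped at 5816, beside 6242 with all 3 called, so the members were close to other genes here. Read only among genes with parental MYC, both Mediator subunits were present at 28 of 35 members (80%) and at 6242 of 7813 of all genes (79.9%), so the share with Mediator was close to that of other MYC-bound genes. Counted at either gene end, no member had both Mediator subunits without MYC, a state seen at 7.8% of all genes. AARS2 had both subunits at its upper end and MYC only at its other end.

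The other 10 members fell into 5 further states. FARSB, RARS1, IARS2, PARS2 and EEF1E1 had MYC and MED17 without MED30, as had 4.83% of all genes. MARS2 had MYC and MED30 without MED17, as had 1.32%. VARS1, the cytosolic valine enzyme, had MYC alone, as had 1.7% of all genes, with a fold of 6.17 and the nearest MED30 peak 38879 bp away. LARS2 had MED17 alone (fold 6.09), as had 4.1%, and its nearest parental MYC peak lay 43833 bp away. FARS2 and VARS2 had none of the 3, as had 47.7% of all genes. A missing call in a list with 1 library says only that no peak passed the limit there.

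FARS2 and CARS2 are cases in which the gene ends miss the start that RefSeq lists. The listed start of FARS2 (chromosome 6, position 5261007) lies inside the annotated gene, and peaks were called there for MYC in shMED30 cells without doxycycline (fold 5.97), MYC in parental cells (6.66), MED30 (4.17) and MED17 (6.24). Near the listed starts of CARS2 (chromosome 13, positions 110706515 and 110706116) the folds were 5.47 for parental MYC, 7.14 for MED30 and 5.06 for MED17. Each was above that of the highest peak at its gene end in the same list (3.34, 4.35 and 2.98). The MYC and MED30 peaks at that gene end also lie within 1 kb of the neighbouring gene ING1. Counted within 1 kb of a listed start, 32 of 33 members had parental MYC, 27 MED30 and 32 MED17. The shares over all 15843 genes with a listed start were 42.2% for parental MYC, 44.8% for MED30 and 51.8% for MED17. VARS2 had no listed start and no peak near either end, with the nearest MED17 peak 29927 bp and the nearest parental MYC peak 694287 bp away.

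Some members share their peaks with a neighbour. All parental MYC peaks of 13 of the 35 bound members (37.1%) also lay within 1 kb of another protein-coding gene, close to the 33.6% of all bound genes. They were 5 of 19 cytosolic and 6 of 13 mitochondrial genes, with AIMP1 and AIMP2. KARS1 shares its peak with TERF2IP, EARS2 with UBFD1, SARS2 with the mitochondrial ribosomal protein gene MRPS12, RARS2 with ORC3, and HARS1 with HARS2. Without genes that had only shared peaks, parental MYC remained at 22 members, 14 cytosolic and 7 mitochondrial among them, and at 5191 of 20037 of all genes. AARS1 had peaks of all 3 proteins at each end. Its parental MYC fold was 5.14 beside EXOSC6 at the lower end and 3.33 at its own start.

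For 13 amino acids a single cytosolic and a single mitochondrial gene, each serving that amino acid alone, are members, so the compartments could be set side by side. Phenylalanine, glutamate and proline were left out of the pairs. For parental MYC, EPRS1 had 4.51 against 9.16 at EARS2 (glutamate) and 5.80 at PARS2 (proline). For phenylalanine, FARSA had 5.96 and FARSB 7.26, and FARS2 had no peak at a gene end. Parental MYC was called at both genes of 11 pairs. The cytosolic gene had the higher fold in 5, the mitochondrial gene in 5, and HARS1 and HARS2 have the same peak. The cysteine and alanine pairs depend on the gene end used. CARS1 had 5.33 against 3.34 at the CARS2 gene end beside ING1, while the fold near the listed starts of CARS2 was 5.47. AARS1 had 5.14 beside EXOSC6 and 3.33 at its own start, against 4.21 at the AARS2 end beside DRC5. Only the cytosolic gene was called for leucine (LARS1, 7.69) and valine (VARS1, 6.17). Single amino acids went opposite ways. YARS1 had a fold of 11.0 against 5.39 at YARS2, and IARS1 had 8.97 against 4.23 at IARS2, while WARS1 had 3.46 against 9.04 at WARS2.

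MED30 was called at both genes of 9 pairs, with the cytosolic gene higher in 5, the mitochondrial gene higher in 3 and 1 shared peak. The cysteine pair counts as cytosolic through 5.29 at CARS1 against 4.35 at the CARS2 gene end, while the MED30 fold near the CARS2 listed starts was 7.14. MED17 was called at both genes of 11 pairs, with the cytosolic gene higher in 4 and the mitochondrial gene higher in 7. HARS1 and HARS2 share a MED17 peak at their starts (4.80), and HARS2 counts as higher only through a peak of 4.95 at its other end, beside ZMAT2. The alanine pair went the same way for both Mediator subunits, with 4.80 at AARS1 against 8.85 at AARS2 for MED30, and 5.12 at AARS1 against 10.2 at AARS2 for MED17. These AARS1 peaks lie beside EXOSC6, and at the end with its own start AARS1 had 4.14 for MED30 and 5.07 for MED17. The cysteine pair went the other way for MED17, with 7.12 at CARS1 against 2.98 at the CARS2 gene end and 5.06 near the CARS2 listed starts. No compartment was higher throughout for any of the 3 proteins.

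The 10 members known as subunits of the multi-synthetase complex (EPRS1, IARS1, KARS1, LARS1, MARS1, QARS1, RARS1, AIMP1, AIMP2 and EEF1E1) were compared with the 12 other cytosolic enzymes, a grouping made after the values were seen. Parental MYC was called at 10 of 10 complex genes with a median fold of 6.18, and at 12 of 12 others with a median of 5.77. MYC in shMED30 cells without doxycycline was called at 5 of 10 complex genes and 3 of 12 others, and with doxycycline at 5 of 10 and 2 of 12. MED30 was called at 8 of 10 complex genes and 10 of 12 others, and MED17 at 10 of 10 and 11 of 12. Over all protein-coding genes the MYC shares were 39.0% in parental cells, 8.55% without doxycycline and 4.71% with it. The shares for Mediator were 41.7% for MED30 and 47.9% for MED17. The difference between complex genes and others was not tested.

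MYC in the shMED30 line was called at fewer members, in libraries of lower depth than the parental one. Without doxycycline, 12 members had a MYC peak, where 8.55% of all genes had one. They comprised 6 cytosolic genes (FARSB, GARS1, IARS1, KARS1, LARS1 and YARS1), 4 mitochondrial genes (EARS2, MARS2, WARS2 and YARS2) and 2 scaffold genes (AIMP2 and EEF1E1). The parental library was 8.27 times as deep as this one by background pileup, and the part of depth in the lower count was not tested. All 12 had a parental MYC peak. Their parental folds ran from 5.39 to 13.7 with a median of 8.18, against 3.34 to 8.01 with a median of 4.93 at the 23 bound members without a peak in that list. Over all genes the 2 medians were 6.55 and 4.41. Of the 11 members with a parental fold of 7 or more, 10 had a peak without doxycycline, and 685 of 1002 of all such genes (68.4%) had one. TARS1 was the exception, and the limit of 7 was not among the planned settings.

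**Figure D3:**
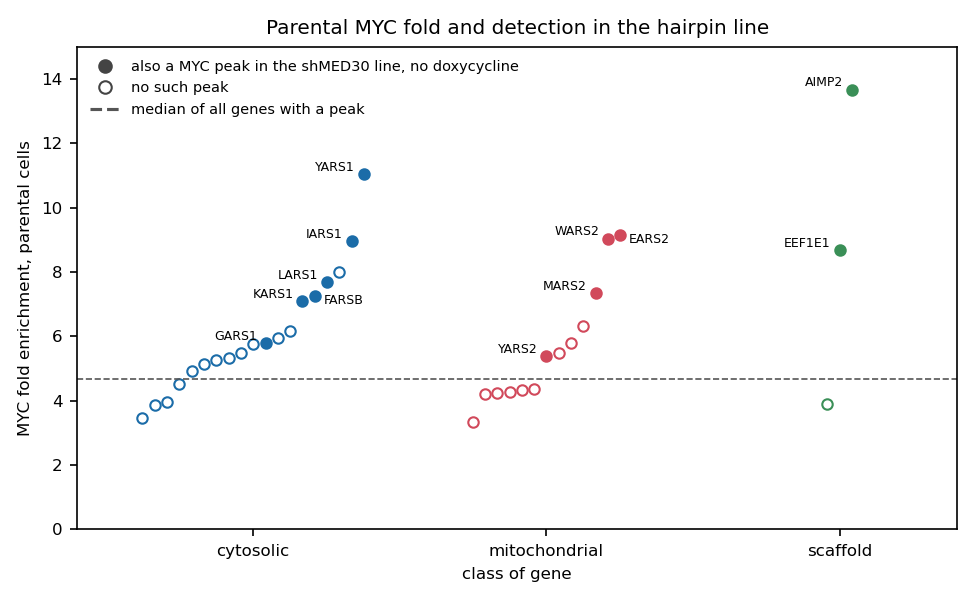
Parental MYC fold enrichment (vertical axis) of each bound member, sorted within its class (horizontal axis), with filled points where MYC was also called in the shMED30 line without doxycycline and a dashed line at the median of all genes with a parental MYC peak. Most filled points lie at the upper end of their class, where TARS1 at 8.01 is open, with GARS1 and YARS2 at 5.79 and 5.39 as the lowest of them.

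With doxycycline, 9 members had a MYC peak, where 4.71% of all genes had one: 5 cytosolic, 2 mitochondrial and 2 scaffold genes. Of the 12 members with a peak without doxycycline, 8 had an overlapping peak with it, where 33.5% of all genes with such a peak did. These were IARS1, KARS1, LARS1 and YARS1 (4 of 6 cytosolic), MARS2 and WARS2 (2 of 4 mitochondrial), and AIMP2 and EEF1E1 (both scaffold genes). MYC was thus called in all 3 MYC lists at 8 members, where 2.93% of all genes were. The share kept differed with the fold without doxycycline, whose median was 6.996 over members and 5.91 over all genes. All 6 members with a fold of 7 or more without doxycycline kept the peak, as did 325 of 501 of all such genes (64.9%). Below 7, 2 of 6 members kept it, as did 248 of 1212 of all such genes (20.5%). The limit of 7 was not among the planned settings. It falls between EARS2 (6.70), the highest member that did not keep its peak, and KARS1 (7.29), the next member above it. The 6 of 6 therefore depends on where the limit was set. With only the upper 50% of peaks by fold in each list, 4 of 11 members kept a peak, close to the 453 of 1214 of all genes (37.3%), so the members' higher share was not seen at that setting.

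Since background pileup with doxycycline was 0.599 times that without it, summit pileups were compared after scaling by that ratio. AIMP2 had 24 fragments at the summit with doxycycline (95% Poisson interval 15.4 to 35.7) and 40 without it (28.6 to 54.5), a depth-scaled ratio of 1.00 (0.577 to 1.70). Its fold was 14.5 with doxycycline and 17.3 without it, and the centre of its E-box lay 0 and 7 bp from the 2 summits. YARS1 had 6 fragments with doxycycline and 16 without it, a ratio of 0.626 (0.20 to 1.68). IARS1 had 5 with doxycycline and 15 without it, a ratio of 0.556 (0.158 to 1.61). The 2 IARS1 summits lay 217 bp apart, the widest gap of the 8 genes, so its ratio compares different positions. The ratios of YARS1 and IARS1 were below 1, and both intervals contained 1.

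EEF1E1 had 6 fragments with doxycycline and 15 without it, a ratio of 0.667 (0.212 to 1.82). LARS1 had 4 with doxycycline and 11 without it, a ratio of 0.607 (0.141 to 2.05). KARS1 had 7 with doxycycline and 13 without it, a ratio of 0.898 (0.303 to 2.42). The LARS1 summit held the fewest fragments with doxycycline. WARS2 had 5 fragments with doxycycline and 8 without it, a ratio of 1.04 (0.268 to 3.61). MARS2 had 5 in each library, a ratio of 1.67 (0.384 to 7.25). The intervals of all 8 ratios contained 1. The median ratio over the 8 genes was 0.783, and over all 573 genes that kept a peak it was 1.08, with quartiles of 0.834 and 1.36.

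A MYC peak without doxycycline and none overlapping it with doxycycline was seen at 4 members. EARS2 had 11 fragments without doxycycline, GARS1 (glycine) 10, FARSB 9 and YARS2 8. Scaled to the depth with doxycycline, these equal 6.59, 5.99, 5.40 and 4.80 fragments. Peaks at gene ends in the doxycycline list started at 3 fragments, and at least 5% of them had 4 or fewer, with a median of 7. A loss at these 4 genes could not be resolved at this depth, since the Poisson interval without doxycycline reached down to 3.45 to 5.49 fragments before scaling. TARS1 had a peak with doxycycline (7 fragments, 2.81 to 14.4, fold 5.66) and none without it, and 39.6% of all genes with a doxycycline peak had no overlapping peak without it. Its parental MYC fold was 8.01.

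**Figure D4:**
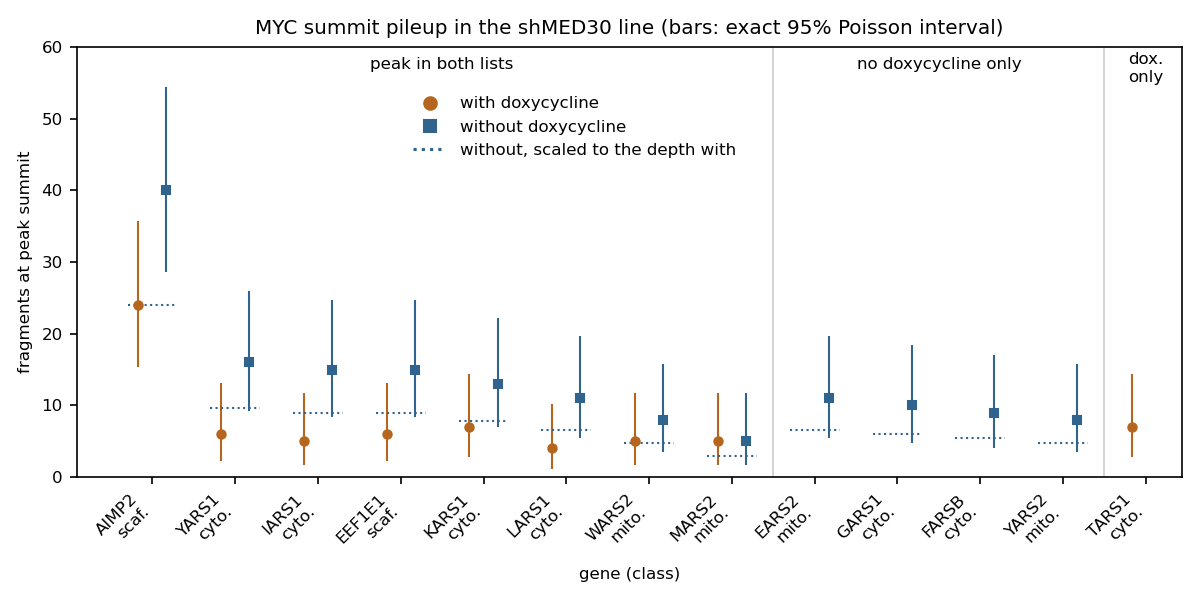
Fragments at the MYC peak summit (vertical axis) with doxycycline (circles) and without it (squares) for the 13 members where MYC was called in the shMED30 line (horizontal axis), with exact 95% Poisson intervals as bars and dotted lines at the value without doxycycline scaled to the depth with it. The scaled value falls inside the doxycycline interval at each of the 8 genes with peaks in both lists, and AIMP2 at 24 and 40 fragments stands above the other genes.

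Peak summits lay close to the listed starts. Positions were taken for the highest peak at a gene end, where its summit lay within 1 kb of a listed start. In parental MYC this held for 29 members and left out AARS1 and CARS2, whose highest peaks lie farther off, and FARS2, which had no peak at a gene end. The median of these 29 MYC summits stood at 41 bp from the start, beside -8 bp over all genes, where a negative value is upstream. It was 127 bp for cytosolic and 9 bp for mitochondrial genes. MED30 summits of the members had a median of -91.5 bp, with 8 of 24 downstream, beside -26 bp over all genes. MED17 summits had a median of 197 bp, with 20 of 27 downstream, beside 175 bp over all genes. The order of MED30 before the start and MED17 after it at the members was thus that of all genes.

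**Figure D5:**
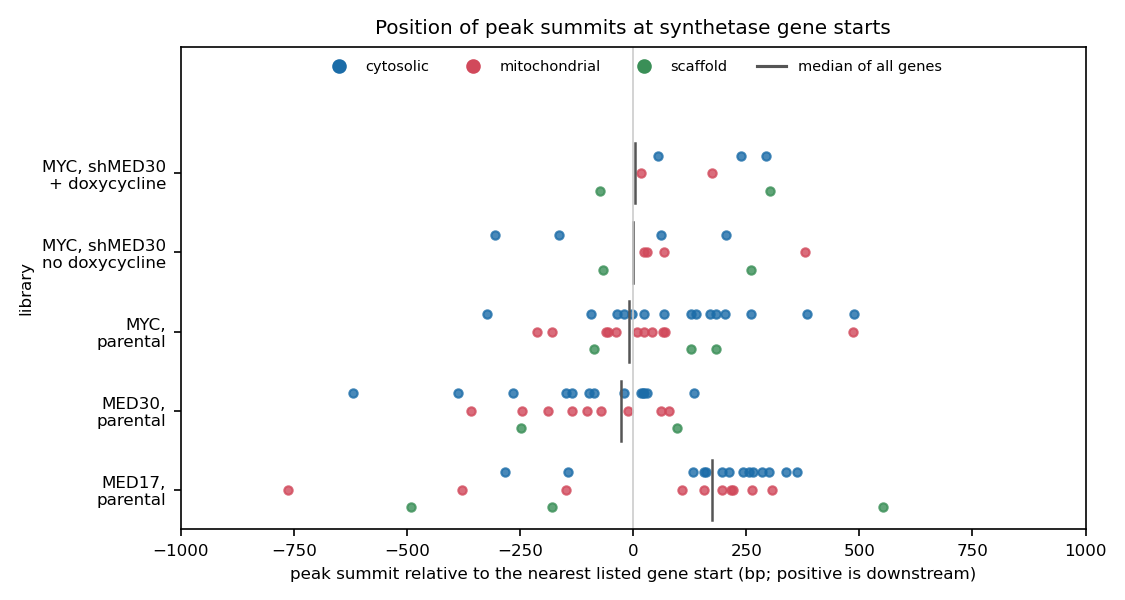
Position of the peak summit relative to the nearest listed gene start in bp (horizontal axis, positive is downstream) in each of the 5 libraries (vertical axis), a point for each member coloured by class and a dark line at the median of all genes. Most MED17 points lie downstream of the start (20 of 27), and 8 of 24 MED30 points do.

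The E-box CACGTG, searched on both strands (the motif reads the same on each), occurred in the first listed window of 4 of 33 members (12.1%): IARS1 of 16 cytosolic genes, and CARS2, EARS2 and MARS2 of 14 mitochondrial genes. It occurred in 8.88% of all 15843 promoters and in 12.5% of the 6501 whose gene had a parental MYC peak, so the members' share was close to that of other MYC-bound genes. AIMP2 holds it at its second listed start, and counting any listed start the shares were 15.2% of members and 10.9% of all genes. In MARS2 the centre of the E-box lay 27 bp from the MYC summit with doxycycline, 32 bp without it and 18 bp in parental cells. In EARS2 it lay 43 bp from the summit without doxycycline and 53 bp in parental cells. In IARS1 the distances were 20 bp without doxycycline and 89 bp in parental cells, and its doxycycline peak did not reach the motif. In CARS2 the distance was 475 bp in parental cells. Over all promoter E-boxes inside a peak the median distance was 27 bp with doxycycline, 33 bp without it and 62 bp in parental cells, against 140 bp from MED30 summits.

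CCGGAAG, searched on both strands, occurred in 15 of 33 members (45.5%), in 14.2% of all promoters and in 22.3% of promoters with a parental MYC peak at the gene. The 15 were 8 of 16 cytosolic genes (CARS1, GARS1, HARS1, KARS1, NARS1, RARS1, SARS1 and WARS1), 6 of 14 mitochondrial genes (EARS2, HARS2, MARS2, PARS2, SARS2 and TARS2) and EEF1E1. HARS1 and HARS2 count the same letters in their shared window. The motif of NRF1, a regulator of nuclear genes for mitochondria, occurred in 6 of 33 members (18.2%), 3 cytosolic and 3 mitochondrial. It occurred in 8.58% of all promoters and in 14.6% of promoters with a parental MYC peak. CACGCG, a variant E-box, occurred in 6 members (18.2%), beside 14.8% of all promoters and 21.8% of promoters with a parental MYC peak. TGATGNAAT occurred in 1 first listed window, that of TARS1, beside 0.625% of all promoters, and in GARS1 at its second listed start. In GARS1 it lay 52 bp from the MYC summit without doxycycline and 27 bp from that in parental cells. In TARS1 it lay 255 bp from the parental MYC summit and outside the MYC peak with doxycycline. A match is a match of letters and was not read as a bound site.

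Other genes of tRNA charging and maturation were described from 4 lists, beside shares over all genes of 39.0% for parental MYC, 41.7% for MED30 and 47.9% for MED17. Of 15 partners in charging and its quality control, 14 had parental MYC, 9 MED30 and 14 MED17. Of 21 genes of tRNA processing and export, 16 had parental MYC, 14 MED30 and 15 MED17. Of 24 tRNA modification genes, 22 had parental MYC, 20 MED30 and 22 MED17. METTL1, which methylates tRNA with WDR4, had a parental MYC fold of 13.8, above every synthetase enzyme, and kept its peak with doxycycline (fold 7.07 with it and 8.47 without it). RPP40, a subunit of RNase P that trims the leader of precursor tRNA, had a parental MYC fold of 10.9 and EEF1A1, which delivers charged tRNA to the ribosome, 7.32. Of 14 genes of the ATF4 amino acid response, a program that also includes cytosolic synthetase genes, 9 had parental MYC, 11 MED30 and 9 MED17. The highest MYC folds there were those of SLC3A2 (8.50), ATF4 itself (6.78) and SHMT2 (5.61).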

How the data were processed

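Peak lists from 5 ChIP-seq libraries, 1 per group, were used. Trim Galore, Bowtie2, deepTools, MACS2 and hg38 appear in the submitters' processing notes; no source used here gives their versions or any input control. In the deposited lists the fold is a ratio of summit pileup to local background, significance is −log10 p and −log10 q, and the score of the authors follows −log10 q; chromosome, start and end are the deposited coordinates. Peaks were joined to RefSeq genes (GRCh38.p14) within 1 kb of either gene end; overlap meant 1 bp or more. Fold and p were inverted to a whole summit pileup and a background under a Poisson tail, with both values matched to 0.002 log10 units in 99.4% to 99.8% of peaks. The same steps, tested on simulated data, recovered the planted values. The 95% intervals of pileups and folds (exact Poisson) and of depth-scaled ratios (Clopper-Pearson) cover fragment counting error. The 95% Clopper-Pearson intervals of gene shares take the named genes as independent draws and do not measure depth. No test was run, because each group holds 1 library. Genes sharing a peak are not independent.

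Members and lists were chosen with earlier results of these data known. All 38 members are accounted for. Those in full are members with MYC in all 3 MYC lists, with MYC in only 1 shMED30 list, with both Mediator subunits and no MYC, with no peak, or among the 3 highest or lowest folds of a class, plus the 3 highest parental MYC folds of each tRNA list. Alternatives varied the gene window, peak strength, shared peaks, the overlap rule and list length. Python 3.11.15, pandas 2.3.3, SciPy 1.17.1, NumPy 2.4.6 and Matplotlib 3.10.9 were used.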

Additional observations from a re-analysis of the deposited data

How the results depend on the processing

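Over 32 results and 131 alternatives, 106 values stayed the same and 25 moved. A count was taken as the same within 1.5 times the reported value. A median fold was taken as the same inside an interval of the reported median, drawn from its ordered values. Keeping only the upper 50% of peaks by fold left fewer peaks by construction: MED17 at 20 members (11 cytosolic, 7 mitochondrial), parental MYC at 7 mitochondrial genes, doxycycline MYC at 3 cytosolic and 1 mitochondrial gene, and all 3 parental proteins at 11 members (7 cytosolic, 3 mitochondrial). Of 20037 protein-coding genes, 5457 had MED17, 4379 parental MYC and 691 doxycycline MYC at that setting. With the upper 50% of peaks, 4 of 11 members kept a MYC peak with doxycycline (2 of 6 cytosolic, 0 of 3 mitochondrial), beside 37.3% of all genes, so the higher share of the members was lost. Without genes that had only shared peaks, fewer genes were counted by construction: MED17 at 22 members, MED30 at 16 (10 cytosolic, 6 mitochondrial), parental MYC at 22 (7 mitochondrial), doxycycline MYC at 3 cytosolic genes, and all 3 parental proteins at 14 (10 cytosolic, 4 mitochondrial). Among the 20037 genes, 6483 then had MED17, 5503 MED30, 5191 parental MYC and 630 doxycycline MYC. All 3 parental proteins together were not counted over all genes at either setting. Counting from listed gene starts, which LARS1, VARS1, YARS1, AARS2 and VARS2 lack here, gave doxycycline MYC at 3 cytosolic genes, with 2 of 4 keeping the peak, and turned the order without doxycycline round (4 of 16 cytosolic, 5 of 14 mitochondrial). Over all 15843 genes with a listed start, 819 had MYC with doxycycline and 1489 without it, and 33.8% of the latter kept the peak. Limiting the list without doxycycline to the length of the doxycycline list left 1 of 3 mitochondrial genes keeping its peak, beside 38.4% of all genes. Of the motif counts, that at any listed start was chosen after seeing the data. With 1 library per group no replicate could be left out. No paired analysis was possible because each group holds 1 library and no test was run. Depth limits the shMED30 lists most, where members had 4 to 24 fragments with doxycycline and 5 to 40 without it.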

Other observations

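XPO5, which exports small RNAs and tRNA from the nucleus, had a MYC fold of 4.14 in shMED30 cells without doxycycline and 8.01 in parental cells. POP1, a shared subunit of RNase P and RNase MRP, had a MYC peak with doxycycline (fold 7.52) and in parental cells (9.55), and none without doxycycline. QTRT1, which places queuine in tRNA, had a parental MYC fold of 11.0, and TRMT61A, a tRNA methyltransferase, 10.5; neither had a peak in the shMED30 line. EEF1A1 had a MED30 fold of 15.01 and a MED17 fold of 5.38, above AARS2 for MED30 and below it for MED17. Of the tRNA modification genes, PUS7, METTL1, WDR4 and CTU1 kept a MYC peak with doxycycline, and TRMT5, NSUN2 and ADAT2 did not.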
